A study of Mus musculus with 4 samples.

Results

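Very long genes, here the protein-coding genes whose mm10 span is 300 kb or longer, held 481 of the 16939 peaks (2.84%) of the TRE-Msi2 list and 380 of the 12061 peaks (3.15%) of the WT list in their interior. A peak was taken when it overlapped exactly 1 gene span, that span was a protein-coding gene of this length, and the midpoint of the peak lay more than 2 kb from both ends of the span. Together these are 861 of 29000 peaks, and each list was handled apart. The values are from CLIP-seq of MSI2, in which protein and RNA in mouse intestinal epithelium (C57BL6) were joined by 2 pulses of 265 nm light at 400 mJ/cm2, MSI2 was precipitated with an antibody, and RNA from the complex near 50 kD was sequenced. The TRE-Msi2 libraries came from total epithelium of mice with a doxycycline-inducible Msi2 transgene after 24 hours of doxycycline, and the WT libraries came from crypts, with no doxycycline recorded. Genotype, tissue fraction and doxycycline therefore differed together, and which cells drive the inducing protein is not stated in these sources. The 4 libraries, 2 per genotype, are deposited as 1 pooled peak list per genotype, so replicate spread is not available and the genotypes were not tested against each other; in such bulk material, fewer cells of a type and less RNA per cell cannot be told apart. Neither an input or IgG control nor a measure of RNA abundance entered the comparison.

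MSI2 is a Musashi family protein that binds RNA in the cytoplasm, best known for sites in the 3′ UTR of messenger RNAs, and it is expressed by intestinal stem and progenitor cells. Nearly all of the span of a very long gene is intron, which is spliced out in the nucleus, so a random place in such a gene is rarely part of its mature messenger RNA. Many of the longest mammalian genes encode adhesion proteins, channels and receptors of neurons, while a smaller number work in most cells or in epithelia. The gene table used here gives spans but no exons, introns or UTRs, so positions below are distances along a span.

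As a check of the tissue, all 8 enterocyte markers (among them Sis, the brush-border sucrase, and Vil1, villin) had a peak in both lists. All 4 Paneth cell markers and all 4 goblet cell markers also did. Of 10 markers of enteric neurons and glia only Snap25, a protein of vesicle fusion, had a peak in either list, and of 5 muscle markers and 5 stroma markers 0 had one. Of 5 immune markers, 3 (Cd74, Jchain and Lyz2) had a peak in both lists. Among all protein-coding genes, 24.9% had any TRE-Msi2 peak and 20.3% any WT peak. With so few markers, a lack of peaks does not show that neurons, glia, muscle or stroma were absent.

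Of the 557 protein-coding genes of 300 kb or longer, 206 (37.0%, exact 95% interval 33.0% to 41.1%) held an interior TRE-Msi2 peak and 177 (31.8%, 27.9% to 35.8%) an interior WT peak. Over all 21900 protein-coding genes, 24.9% had any TRE-Msi2 peak and 20.3% any WT peak, counted anywhere in the span. Intervals here and below are Clopper-Pearson intervals and cover counting error only. Both lists had a peak in 156 of these genes, which is 75.7% of the TRE-Msi2 genes and 88.1% of the WT genes. Another 50 genes had one in the TRE-Msi2 list only and 21 in the WT list only. This overlap was not counted over all protein-coding genes, of which 5448 had any TRE-Msi2 peak and 4449 any WT peak. It therefore does not set very long genes apart. In each list 79 genes held a single interior peak, and 73 genes in TRE-Msi2 and 51 in WT held at least 3. Very long genes with an interior peak had a median span of 492 kb, against 451 kb for all 557.

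The number of such peaks per length was low. Counting only positions covered by exactly 1 gene, interior peaks of very long genes lay at 1.62 per Mb in TRE-Msi2 and 1.28 per Mb in WT. Positions in no gene span carried 2.93 per Mb in TRE-Msi2 and 2.15 per Mb in WT.

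The listed strand of a peak was taken as that of the RNA, with a limit given below. On that reading, a peak from a gene's own transcript lies on the gene's strand. Strand was known for 425 of the 557 genes, and with it for 351 TRE-Msi2 and 279 WT peaks. Of these, 149 of 351 (42.5%, 37.2% to 47.8%) in TRE-Msi2 and 105 of 279 (37.6%, 31.9% to 43.6%) in WT lay on the strand of the gene. Over all peaks that overlapped a single protein-coding gene of known strand, the share was 86.3% in TRE-Msi2 and 84.3% in WT. In both lists, then, more interior peaks of very long genes lay opposite to the gene than along it: 202 (57.5%) in TRE-Msi2 and 174 (62.4%) in WT. These counts and intervals treat neighbouring peaks as separate. With peaks of the same gene and strand at most 2 kb apart counted once, 115 lay along and 123 opposite in TRE-Msi2 (48.3% along, 41.8% to 54.9%). In WT it was 71 along and 107 opposite (39.9% along, 32.6% to 47.5%).

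The share was lower in longer genes among interior peaks of all protein-coding genes. In TRE-Msi2 it was 91.5% (89.8% to 93.0%) in genes under 30 kb, 88.0% from 30 to 100 kb, 72.5% from 100 to 300 kb, 40.7% (33.4% to 48.3%) from 300 to 500 kb and 44.3% (36.7% to 52.0%) from 500 kb. In WT it was 88.0% (85.5% to 90.2%), 84.3%, 66.3%, 37.4% (29.1% to 46.3%) and 37.8% (30.0% to 46.2%) in the same classes. The intervals of the 3 shorter classes lay above those of both very long classes in each list.

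**Figure D1:**
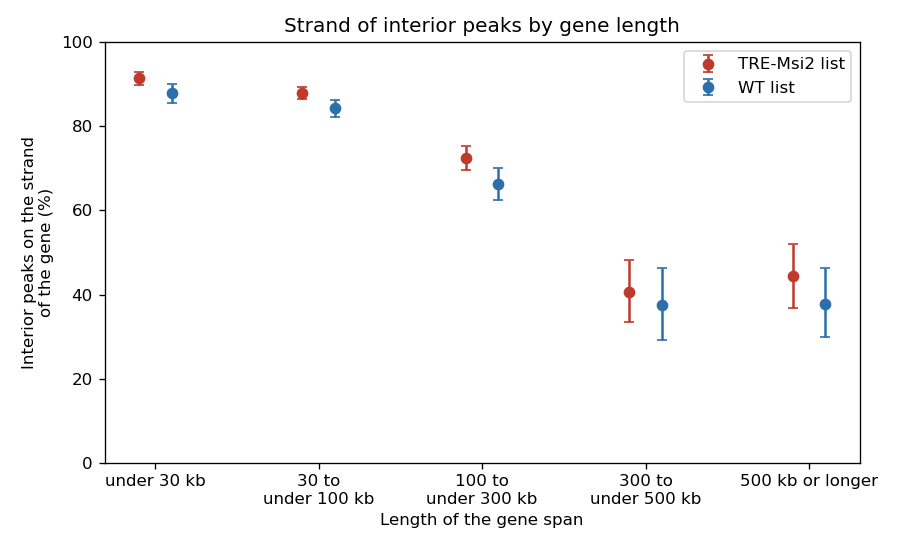
Share of interior peaks on the strand of the gene, in percent, by length of the protein-coding gene, with the TRE-Msi2 point left of the WT point in each class. Points are shares and bars exact 95% binomial intervals, which cover counting error only. Both very long classes, from 300 kb, lie below the 3 shorter ones in each list.

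Most of this step lay in the peaks along the gene, not in those opposite to it. Along the gene, the TRE-Msi2 list had 14.8, 10.2, 3.38, 0.821 and 0.543 interior peaks per Mb in the 5 classes from shortest to longest. Opposite to the gene it had 1.37, 1.39, 1.28, 1.20 and 0.684 per Mb, close to the 1.46 per Mb and strand in no gene span except in the longest class. In WT the values along the gene were 8.99, 5.92, 1.89, 0.559 and 0.395 per Mb. Opposite to the gene they were 1.23, 1.10, 0.959, 0.935 and 0.649 per Mb, with 1.07 per Mb and strand in no gene span. Over all genes of 300 kb or longer, peaks along the gene were at 0.649 per Mb in TRE-Msi2 and 0.457 in WT, below the level of no gene span in each list.

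**Figure D2:**
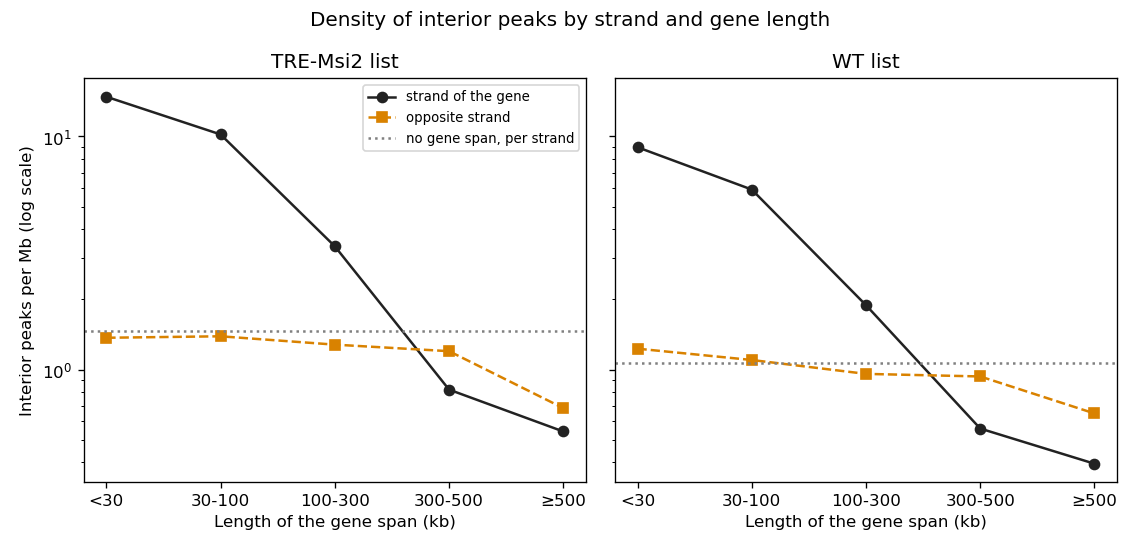
Interior peaks per Mb of sequence covered by 1 protein-coding gene of known strand, on a log axis, along the gene and opposite to it, by gene length, with TRE-Msi2 left and WT right. The dotted line is the level per strand in no gene span (1.46 per Mb in TRE-Msi2 and 1.07 per Mb in WT). Peaks along the gene lie below that line from 300 kb, while opposite peaks vary less with length.

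By gene rather than by peak, 54 of the 156 very long genes of known strand with a TRE-Msi2 peak had peaks only along the gene, 63 only opposite to it and 39 both. Of the 138 such genes in WT, 46 had them only along the gene, 75 only opposite and 17 both. A peak along the gene was present in 93 of 425 genes (21.9%, 18.0% to 26.1%) in TRE-Msi2 and 63 (14.8%, 11.6% to 18.6%) in WT.

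A limit on strand comes from how the lists were built. Peaks are made of 200-nt bins, and 0 neighbouring peaks touch in either list, on the same or on opposite strands, whereas 1793 neighbours in TRE-Msi2 and 1452 in WT are 200 nt apart. Touching bins thus appear joined whatever their strand, and a joined peak may carry the strand of only some of its reads. Single-bin peaks with a score midway between whole numbers are also uncertain in strand, since 329 of 330 in TRE-Msi2 and 68 of 68 in WT are listed on the plus strand. Of these, 17 in TRE-Msi2 and 0 in WT are interior peaks of very long genes. Among single-bin peaks with whole scores the share along the gene was 83 of 169 (49.1%, 41.4% to 56.9%) in TRE-Msi2 and 74 of 178 (41.6%, 34.2% to 49.2%) in WT, both below the shares of the shorter classes. That alternative was added after the data were seen. It may still hold bins of uncertain strand. The TRE-Msi2 bin of score 40 at chr13:63219092-63219291 in Aopep was listed on the plus strand and the WT bin there on the minus strand. Its p-value was also higher than that of another TRE-Msi2 bin with the same score.

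Intestinal genes were described from a list of very long genes with a described role in intestinal epithelium. Of its 27 members of 300 kb or longer, 14 (51.9%) held an interior TRE-Msi2 peak and 12 (44.4%) a WT peak, beside 37.0% and 31.8% of all very long genes. Their peaks lay along the gene in 24 of 37 cases (64.9%, 47.5% to 79.8%) in TRE-Msi2 and 19 of 29 (65.5%, 45.7% to 82.1%) in WT. The same share over all members was 42.5% in TRE-Msi2 and 37.6% in WT. Lpp and Msi2 held many of these peaks, and without them the share was 12 of 24 (50.0%, 29.1% to 70.9%) in TRE-Msi2 and 10 of 19 (52.6%, 28.9% to 75.6%) in WT, a value added after the data were seen. The list was drawn up with earlier results of these data known, so its counts are not independent evidence.

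Msi2, the gene of the precipitated protein, spans chr11:88339382-88718306 on the minus strand and held 4 interior peaks in TRE-Msi2 and 3 in WT, all along the gene. At chr11:88413899-88414098 the score was 51 in TRE-Msi2 (Poisson 95% interval 38.0 to 67.1) and 32 in WT (21.9 to 45.2). Scores are the authors' own and behave as reads per bin, and with library depth unknown, those of the lists are set side by side without a comparison. At chr11:88394499-88394698 they were 47 in TRE-Msi2 (34.5 to 62.5) and 30 in WT (20.2 to 42.8). The peak at chr11:88712287-88712486 had 39 in TRE-Msi2 and 16 in WT. A peak at chr11:88589899-88590098, with a score of 26, was in the TRE-Msi2 list only. All 4 positions were single bins. The TRE-Msi2 mice also carried the induced Msi2 transgene, and whether any of these reads came from its transcript was not tested.

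Slc4a4 encodes the electrogenic sodium bicarbonate cotransporter, which works in the basolateral membrane of epithelia, and it held more interior TRE-Msi2 peaks than any other very long gene. It spans chr5:88793858-89239656 on the plus strand and had 11 in TRE-Msi2 and 8 in WT. Of these, 3 in TRE-Msi2 and 2 in WT lay along the gene, with midpoints 2.08 to 3.98 kb before its 3′ end and top scores of 26 in TRE-Msi2 and 32 in WT. The others were on the minus strand, 8 in TRE-Msi2 and 6 in WT. One row of opposite peaks ran over chr5:89204176-89208975 with 6 peaks in TRE-Msi2 (18.0 to 51.0), against 4 peaks in WT (18.8 to 25). The gene's count was thus made mostly of peaks listed on the strand that does not encode the cotransporter.

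Lpp, a LIM protein of focal adhesions and cell contacts, spans chr16:24393350-24992578 on the plus strand. It had 9 interior peaks in TRE-Msi2, 8 of them along the gene, and 7 in WT, 6 of them along the gene. All 8 in TRE-Msi2 and 5 of the 6 in WT had midpoints within 13.2 kb of the 3′ end, with scores of 20.0 to 37.0 in TRE-Msi2 and 16.0 to 27.0 in WT. Among them, at chr16:24983315-24983514, stood a single bin on the other strand with 35 in TRE-Msi2 and 34 in WT.

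Malrd1, which in mice takes part in bile acid regulation in the small intestine, had 4 interior peaks in TRE-Msi2 and 6 in WT, and its strand was not known here. Its top scores were 32.0 at chr2:16028974-16029573 in TRE-Msi2 and 37.0 at chr2:16020574-16021373 in WT. Prkca, protein kinase C alpha, had 1 peak in TRE-Msi2 (16.1) and 2 in WT (31.0 and 17.5), all along the gene, 5.20 to 5.90 kb from its 3′ end. Tiam1, an exchange factor for Rac, had 2 in each list, also all along the gene, with top scores of 29.7 in TRE-Msi2 and 23.5 in WT. Fhit, a nucleotide hydrolase at a fragile site, had peaks on both strands in both lists, 4 in TRE-Msi2 and 3 in WT.

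The remaining genes of the list had few peaks. Nr3c2, the mineralocorticoid receptor, had 3 in TRE-Msi2 and 1 in WT, and Ank3, a membrane-skeleton adaptor, had 2 in TRE-Msi2 and 1 in WT. Ppargc1a, a coactivator of mitochondrial genes, had 1 in each list along the gene at different places, with scores of 29 in TRE-Msi2 and 17 in WT. Foxp1, Nedd4l and Thrb had 1 TRE-Msi2 peak each, Dcc 2, and none of these had an interior WT peak, while Mecom and Utrn had 1 WT peak each and no TRE-Msi2 peak. No interior peak was found in either list in the remaining 11, among them Cux1, a transcription factor of epithelia, the polarity gene Pard3 and the receptor gene Erbb4. The list does not hold every very long gene known in intestine: Myo5b, a myosin of apical membrane traffic in enterocytes, is not on it and was singled out after its values were seen. It had 4 interior peaks in TRE-Msi2 (21.0 to 25.7) and 3 in WT (15.0 to 17.0), all shared, and its strand was not known here.

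The other lists were larger or less epithelial. Of 33 very long genes used in most cell types, 16 (48.5%) held an interior peak in TRE-Msi2 and 16 in WT. Along the gene lay 16 of their 33 TRE-Msi2 peaks of known strand (48.5%, 30.8% to 66.5%) and 11 of 29 WT peaks (37.9%, 20.7% to 57.7%). Of 99 genes best known from neurons, 46 (46.5%) held one in TRE-Msi2 and 42 (42.4%) in WT, with 29 of 73 (39.7%, 28.5% to 51.9%) in TRE-Msi2 and 19 of 65 (29.2%, 18.6% to 41.8%) in WT along the gene. The neuronal genes were also longer, with a median span of 818 kb against 494 kb for the intestinal genes, and per Mb of whole span they held 1.19 interior peaks in TRE-Msi2 and 1.03 in WT. The intestinal genes held 2.94 per Mb in TRE-Msi2 and 2.30 in WT (2.25 and 1.77 without Lpp and Msi2), and all 557 held 1.51 in TRE-Msi2 and 1.19 in WT. The genes used in most cell types, with a median span of 452 kb, held 2.11 per Mb in TRE-Msi2 and 1.89 in WT. Of 12 muscle and heart genes, 5 had a peak in each list, with 2 of 9 in TRE-Msi2 and 1 of 8 in WT along the gene. The 386 genes on none of these lists had a peak in 125 cases (32.4%) in TRE-Msi2 and 102 (26.4%) in WT.

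The intestinal list thus had more peaks per length than the neuronal list, with and without Lpp and Msi2. It also had more than the genes used in most cell types, but only with Lpp and Msi2 in both peak lists. Without them it had 2.25 against 2.11 per Mb in TRE-Msi2 and 1.77 against 1.89 in WT. Slc4a4 stayed in both intestinal counts: without Lpp and Msi2 it held 11 of 33 peaks in TRE-Msi2 and 8 of 26 in WT. Most of these were opposite to the gene, and no value without Slc4a4 was computed. Gene length was not adjusted for, and density was lower from 500 kb than from 300 to 500 kb (1.40 against 1.96 per Mb in TRE-Msi2, 1.19 against 1.41 in WT, where exactly 1 gene lay). The intervals of the intestinal and neuronal shares along the gene overlap in TRE-Msi2, and in WT only without Lpp and Msi2. The lists were not tested against each other. Of the 73 neuronal genes of known strand, 18 in TRE-Msi2 and 13 in WT had a peak along the gene, beside 93 and 63 of all 425.

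Single genes of these lists stood on either side. Among neuronal genes Cntn5, a contactin, had a peak along the gene with 22.2 at chr9:10195601-10196800 in TRE-Msi2 and 37 at chr9:10195801-10196000 in WT. Cntnap2, an adhesion protein of neurons, had an opposite peak at chr6:46681602-46681801 with 45 in TRE-Msi2 and 29 in WT. Robo2, an axon guidance receptor, had a WT peak along the gene at chr16:74774956-74775155 with 30, within a TRE-Msi2 peak at chr16:74774156-74775155 with 23.2. At chr3:156800637-156800836 in Negr1, a neuronal adhesion protein, the TRE-Msi2 peak was listed along the gene with 35.5. The WT peak there was listed opposite to the gene with 15, so the strand at this place is uncertain. Among genes of muscle and heart, Prkg1, a kinase activated by cyclic GMP, had 34.3 in TRE-Msi2 and 26 in WT along the gene at chr19:30566511-30566910. Palld, an actin-binding protein, had an opposite peak at chr8:61741804-61742003 with 36 in TRE-Msi2 and 19 in WT. Of genes used in most cell types, Rere, a corepressor, had a peak along the gene at chr4:150541892-150542091 with 20 in TRE-Msi2 and 25 in WT. Fto, an RNA demethylase, had an opposite one with 28 at chr8:91432702-91433101 in TRE-Msi2 and 25 at chr8:91432702-91432901 in WT.

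Of the 227 very long genes with an interior peak in either list, 61 had members on both strands within a list. Genes with the most interior peaks mixed both patterns. Rsrc1, an arginine and serine rich protein linked to splicing, had 7 in TRE-Msi2 and 10 in WT, all along the gene. Of them, 6 in TRE-Msi2 and 9 in WT formed a row of 7.60 kb at chr3:67096079-67103678, about 115 kb into a span of 377 kb, with scores of 18.4 to 32.5 in TRE-Msi2 and 15.0 to 35.4 in WT. A further single bin at chr3:67028879-67029078 had 40 in TRE-Msi2 and 16 in WT. Adarb2, a brain member of the RNA-editing deaminase family, had the reverse pattern: 6 of its 7 TRE-Msi2 peaks and all 10 WT peaks were opposite to the gene. Most of these lay at chr13:8762155-8766354, 2.51 to 6.51 kb before the 3′ end.

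Other genes high in this count were A830018L16Rik with 9 in TRE-Msi2 and 7 in WT, and, in TRE-Msi2, Gpc6, a cell-surface heparan sulfate proteoglycan, and Etl4, with 7 each. Pard3b, a polarity protein, Ptprd, a receptor tyrosine phosphatase of neurons, and Kcnn2, a calcium-activated potassium channel, had 6 each in TRE-Msi2. In WT, Cdh18, a cadherin of neurons, Ralyl, Sntg1, a syntrophin, and Macrod2, an ADP-ribose hydrolase, had 5 each. Those of Macrod2 were opposite to the gene in all 5 cases in TRE-Msi2 and in all 5 in WT. Without Slc4a4, Lpp, Rsrc1, Adarb2 and Msi2 the share along the gene was 126 of 313 (40.3%) in TRE-Msi2 and 84 of 241 (34.9%) in WT, so these genes did not set the share over all members.

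**Figure D3:**
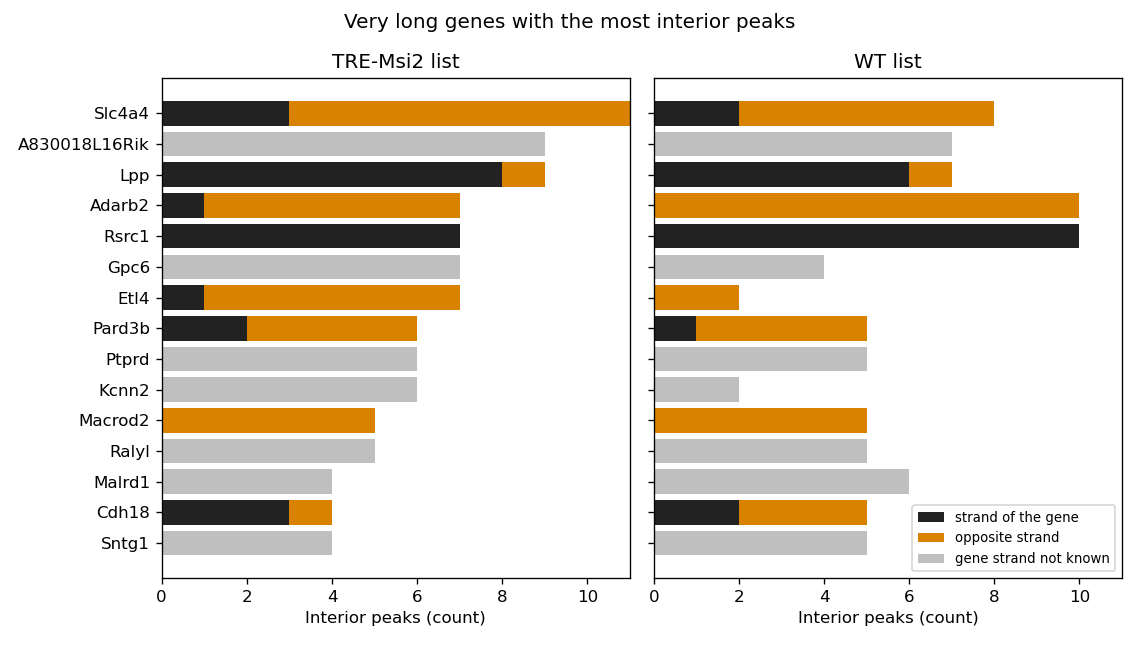
Number of interior peaks in the very long genes with the most of them, split by side of the gene (along it, opposite, strand not known), with TRE-Msi2 left and WT right. Slc4a4 leads in TRE-Msi2 with 11, mostly opposite, and Rsrc1 and Adarb2 lead in WT with 10 each, on opposite sides of their genes.

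**Figure D4:**
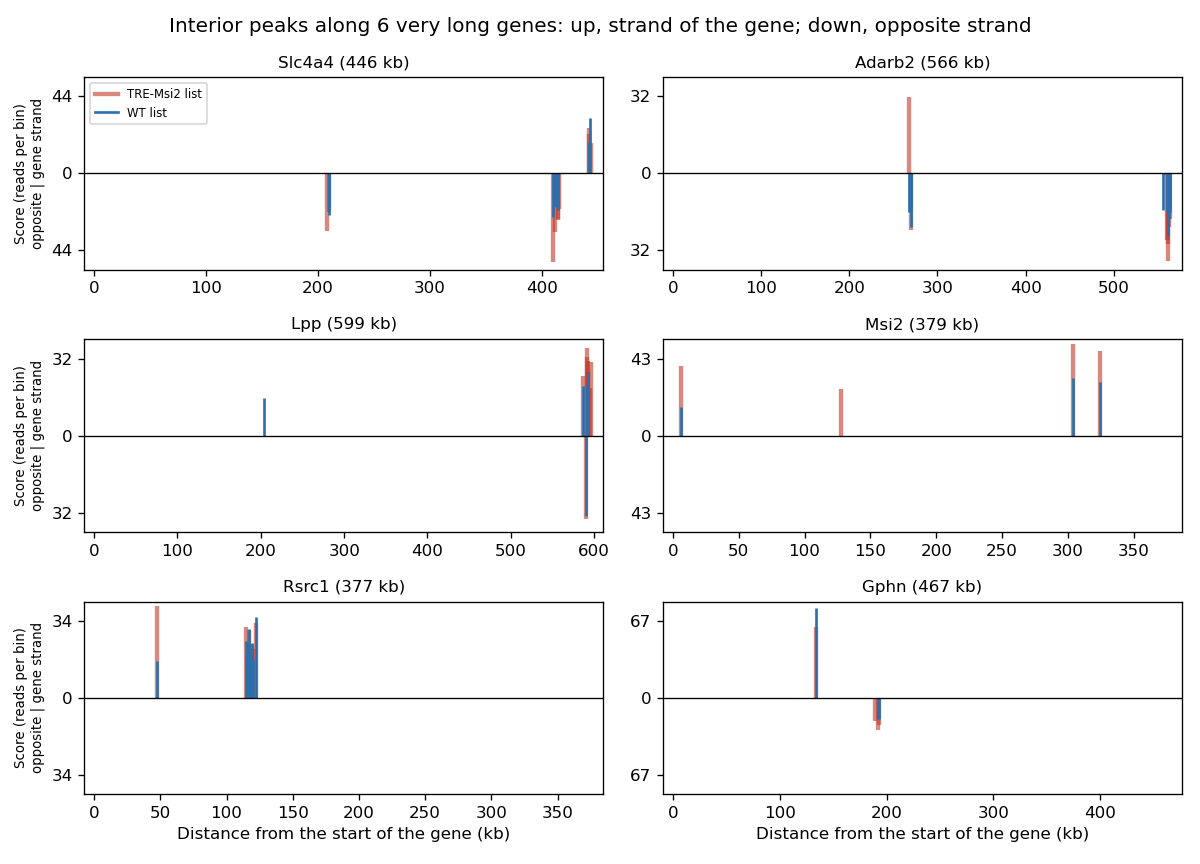
Interior peaks along Slc4a4, Lpp, Rsrc1, Adarb2, Msi2 and Gphn, with distance from the start of the gene in kb across and the authors' score up or down. Broad bars are the TRE-Msi2 list and narrow bars the WT list, those along the gene point up and opposite ones down, and in each gene most peaks stand at few places that are at like positions in both lists.

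The highest score of all members was in a gene with few of them. Camk1d, a calcium/calmodulin-dependent kinase, had a peak along the gene at chr2:5378955-5379354 with a score of 119.5 in TRE-Msi2 and 108.5 in WT, which ranked 3rd in each whole list. Trpm3, a cation channel known from sensory neurons, had a single bin along the gene at chr19:22851911-22852110 with 96 (77.8 to 117) in TRE-Msi2 and 82 (65.2 to 102) in WT. Gphn, which serves molybdenum cofactor synthesis and anchors inhibitory receptors at synapses, had 62 in TRE-Msi2 and 79 in WT at chr12:78350814-78351213, along the gene. Each of these peaks thus had the same limits in both lists.

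Further high peaks had the same start in both. Celf2, an RNA-binding regulator of splicing, had a peak along the gene from chr2:7076155 with 69.5 in TRE-Msi2 and 73 in WT (57.2 to 91.8). Kcnip1, a subunit of potassium channels, had one at chr11:33754601-33755200 with 41 in TRE-Msi2 and 68 in WT. Prex2, an exchange factor for Rac whose strand was not known here, had 80 in TRE-Msi2 and 52 in WT at chr1:11299520-11299719. Snd1, a coactivator with nuclease-like domains, had a peak along the gene at chr6:28888601-28888800 with 41 in TRE-Msi2 and 22 in WT, and Arid1b, a subunit of the SWI/SNF remodelling complex, had one of 2600 nt at chr17:5146201-5148800 with 45.9 in TRE-Msi2 and 28.2 in WT.

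Among peaks opposite to the gene, Tmtc2, a mannosyltransferase of the endoplasmic reticulum, led with 73 in TRE-Msi2 and 74 in WT at chr10:105238145-105238544. Dnah7b, an axonemal dynein heavy chain, had 50.3 in TRE-Msi2 and 68 in WT at chr1:46075956-46076355. In TRE-Msi2 the opposite peak of Slc4a4 stood between them with 51, and that of Cntnap2 followed with 45, while Dip2c had 44 in TRE-Msi2 at chr13:9435755-9435954. In WT, the opposite peak of Lpp followed with 34, then Cdh18 with 30 at chr15:23242846-23243045, and so did Slc8a1, a sodium/calcium exchanger, with 30 at chr17:81375261-81375460. High scores therefore occurred on both sides of the genes.

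As a group the scores resembled those of the whole lists. Their median was 24.6 in TRE-Msi2 (quartiles 21.0 and 29.0, range 13.7 to 119.5) and 18.3 in WT (16.0 and 22.0, 12.0 to 108.5). Over the whole lists it was 24.7 in TRE-Msi2 and 19.0 in WT. Single bins made up 253 of the members (52.6%) in TRE-Msi2 and 249 (65.5%) in WT, beside 58.8% and 63.2% of the whole lists. Joined peaks carry means over bins, and the widest member had 2600 nt in each list. The lowest score of a single bin was 20 in TRE-Msi2 (12.2 to 30.9) and 15 in WT (8.40 to 24.7), reached by 43 members in TRE-Msi2 and 33 in WT.

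Peaks along the gene had a median score of 26.0 in TRE-Msi2 and 19.0 in WT, and opposite peaks 24.0 in TRE-Msi2 and 18.0 in WT. By score, the share along the gene in TRE-Msi2 was 22.2% (6 of 27) under 20, 40.1% from 20 to 25, 44.9% from 25 to 30 and 50.0% (44 of 88, 39.1% to 60.9%) from 30. In WT it was 32.9% (56 of 170), 40.0%, 38.1% and 72.2% (13 of 18, 46.5% to 90.3%). Even among the highest scores the share stayed under the 86.3% of all TRE-Msi2 peaks in single genes, while in WT the interval of the 18 peaks from 30 includes the 84.3% of all WT peaks.

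Sharing between the lists was counted where peaks of the same strand had at least 1 base in common. Of the TRE-Msi2 members 257 of 481 (53.4%, 48.9% to 58.0%) had a WT peak over them, against 57.6% of the whole TRE-Msi2 list. Of the WT members 314 of 380 (82.6%, 78.4% to 86.3%) had a TRE-Msi2 peak over them, against 91.3% of the whole WT list. With either strand allowed the shares were 57.0% of TRE-Msi2 members, against 59.0% of that list, and 87.1% of WT members, against 93.4% of that list. Among single bins with a score of 30 or more, 44 of 72 TRE-Msi2 members (61.1%, 48.9% to 72.4%) were shared, and 78.7% (77.2% to 80.2%) of such peaks in the whole list. Among single bins under 20 in WT, 84 of 131 members (64.1%, 55.3% to 72.3%) were shared, and 81.0% (79.7% to 82.2%) in the whole list. From 20 to 25 in WT it was 72 of 84 members (85.7%, 76.4% to 92.4%), and 94.2% (93.1% to 95.2%) in the whole list. WT single bins from 30 were shared in 12 of 12 cases (73.5% to 100%), and there the intervals overlapped.

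Peaks along the gene were shared in 45.0% of cases (36.8% to 53.3%) in TRE-Msi2 and 77.1% (67.9% to 84.8%) in WT. Opposite peaks were shared in 58.9% (51.8% to 65.8%) in TRE-Msi2 and 84.5% (78.2% to 89.5%) in WT. The intervals overlap in each list.

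**Figure D5:**
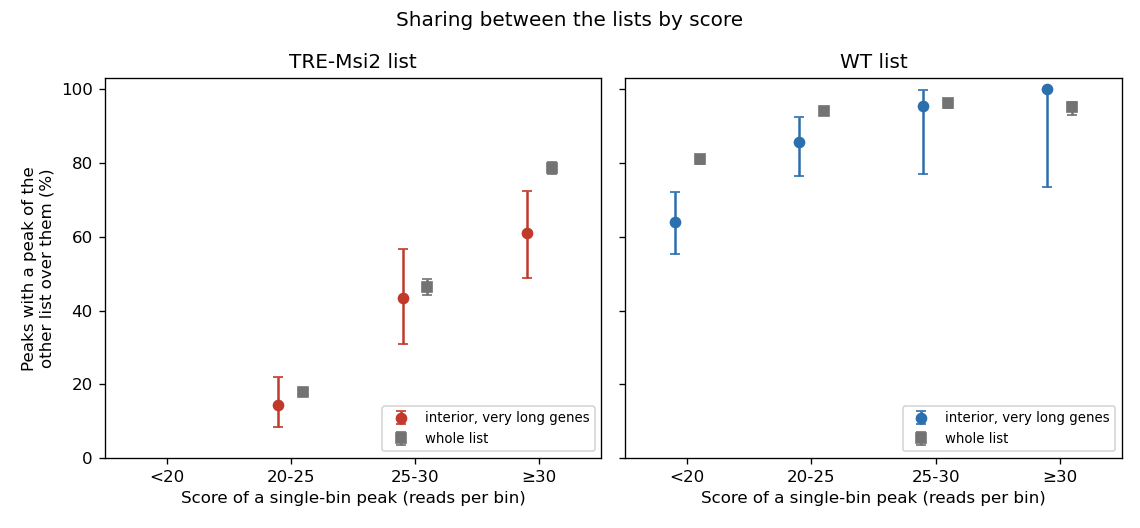
Share of single-bin peaks overlapped on the same strand by a peak of the other list, in percent, by score, for interior peaks of very long genes and for the whole list, with TRE-Msi2 left and WT right. Bars are exact 95% binomial intervals (counting error only), and the interval of the members lies below that of the whole list from a score of 30 in TRE-Msi2, and under 20 and from 20 to 25 in WT.

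The highest-scoring TRE-Msi2 members with no WT peak on their strand were in Gpc6 (42, chr14:117976779-117976978), in Macrod2 (42, opposite, chr2:142198265-142198464) and in Aopep, an aminopeptidase (40, chr13:63219092-63219291). Pard3b (39.5, chr1:62535227-62535426) and Il1rapl2 (37, chrX:137690462-137690661) came next, and for these and for Aopep a WT peak lay there on the other strand. In Aopep the WT peak had the same limits, on the minus strand, with 16. At chr13:8470755-8470954 in Adarb2, likewise, the TRE-Msi2 peak was on the plus strand with 31.5 and the WT peak on the minus strand with 16. Such a change of strand occurred for 17 members of each list, with all 17 on the plus strand in TRE-Msi2 and 0 of 17 in WT.

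The highest-scoring WT members with no TRE-Msi2 peak on their strand were led by Tln2, talin 2 (29, chr9:67219194-67219393), and by Lingo2 (24, opposite, chr4:36833768-36834167), Nfia, a transcription factor (24, along the gene, chr4:98112910-98113109), Syn3, a synapsin (24, chr10:86293056-86293255), and Atxn1 (22, chr13:45833632-45833831). At those of Tln2 and Syn3 a TRE-Msi2 peak lay on the other strand.

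Along the gene, peaks gathered toward the 3′ end. The last 10% of the span held 50 of the 149 TRE-Msi2 peaks along the gene (33.6%, 26.0% to 41.7%) and 36 of the 105 WT peaks (34.3%, 25.3% to 44.2%), although the last 2 kb were left out. They came from 31 of 93 genes in TRE-Msi2 and 23 of 63 in WT. Of opposite peaks, 37 of 202 (18.3%) in TRE-Msi2 and 38 of 174 (21.8%) in WT lay in that stretch. Within it the share along the gene was 57.5% (50 of 87, 46.4% to 68.0%) in TRE-Msi2 and 48.6% (36 of 74, 36.9% to 60.6%) in WT. In the rest of the span it was 37.5% (99 of 264) in TRE-Msi2 and 33.7% (69 of 205) in WT.

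Many members stood in rows. With peaks of the same gene and strand joined when at most 2 kb apart, the TRE-Msi2 members formed 324 groups and the WT members 241, of which 112 in TRE-Msi2 and 87 in WT held several peaks, 269 and 226 in all. Lone peaks lay along the gene in 93 of 156 cases (59.6%, 51.5% to 67.4%) in TRE-Msi2 and 52 of 114 (45.6%) in WT. Groups of several lay along it in 22 of 82 cases (26.8%, 17.6% to 37.8%) in TRE-Msi2 and 19 of 64 (29.7%, 18.9% to 42.4%) in WT. In TRE-Msi2 the interval of lone peaks was above that of groups. With each group counted once, 48.3% in TRE-Msi2 and 39.9% in WT lay along the gene.

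The length of 300 kb is a limit of the rule, and genes at it differed little in size from their neighbours. Just inside it in TRE-Msi2 were Dync1i1, a dynein chain (302 kb, top score 24.7), Pid1 (304 kb, 19) and Plce1, a phospholipase (304 kb, 19). Just outside were Akap13, an anchoring protein of kinase A (299 kb, 32), Myo1d, a myosin (298 kb, 30), and Ncam1, an adhesion protein (297 kb, 20). In WT, Dync1i1 (15), Pak7 (307 kb, 20.5) and Dnah7b (307 kb, 68) were just inside, and Ncam1 (17), Oca2 (297 kb, 22) and Dclk1 (297 kb, 20) just outside.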

How the data were processed

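MSI2 CLIP-seq libraries of TRE-Msi2 and WT mice (2 each) are deposited as 1 Piranha peak list per genotype, merged after removal of duplicates, per the file names. The submitters' processing notes name cutadapt, TopHat, mm9 and mm10 (tool versions not given in the sources used here). Coordinates fit mm10 (GRCm38). The deposited value column joins a score and a p-value per peak, both the authors' own. Scores of single 200-nt bins are nearly all whole, and library depth is unknown. The p-value exceeded 0.05 in 180 TRE-Msi2 and 103 WT members, all joined peaks, and was not read as significance.

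Peaks were set against a RefSeq gene table of GRCm38.p6 (49980 placed genes, 21900 protein-coding). Strand came from the matching RefSeq promoter table (425 of 557 very long genes). No member touched a promoter in it, and no genome sequence was used, so no sequence or motif is given. Python 3.11.15, numpy 2.4.6, pandas 2.3.3, scipy 1.17.1 and matplotlib 3.10.9 were used, and the assignment was checked on simulated data. Shares carry exact binomial intervals; with 1 list per genotype no test was made.

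The members and gene lists were chosen with earlier results of these data known. Genes were named by a rule: in each list the 10 with the most members and the 10 highest scores, the 5 highest unshared and the 5 highest opposite peaks, genes with both strands, genes beside the length limit, and the top genes of each gene list. The remaining genes of the intestinal list were named to account for that list. Alternatives varied the length, the margin, the gene types, the score and p-value limits, peak width and overlap.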

Additional observations from a re-analysis of the deposited data

How the results depend on the processing

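No paired analysis was possible because each deposited list pools the libraries of a genotype and holds no column per replicate; for the same reason leaving out a replicate could not be done. Of 60 alternative values, 36 were within 1.5 times the count given, or within the interval of the share or the quartiles of the median, and 24 were not. The number of members (481 in TRE-Msi2, 380 in WT) became 742 in TRE-Msi2 with genes from 200 kb; with genes from 500 kb it was 251 in TRE-Msi2 and 214 in WT, with the 50% of peaks of highest score 239 and 184, and with a p-value of 0.01 or lower 301 in TRE-Msi2. The share along the gene (42.5% in TRE-Msi2) was 36.9% with a margin of 10 kb, 49.8% at a p-value of 0.01 or lower, 50.5% for single bins, 49.1% for single bins with whole scores and 48.3% with 1 per group of neighbours, these last 2 added after seeing the data; in WT it stayed within the interval of 37.6%. Sharing in TRE-Msi2 (53.4%) was 39.5% at an overlap of 50% of the peak, 35.1% for the upper 50% by score, 35.9% at a p-value of 0.01 or lower and 34.8% for single bins. Sharing in WT (82.6%) was 87.1% on either strand, 47.8% for the upper 50% by score, 39.4% at a p-value of 0.01 or lower and, against the whole TRE-Msi2 list, 75.9% for single bins. Very long genes with a member (206 in TRE-Msi2, 177 in WT) numbered 98 and 92 from 500 kb, and 93 and 63 with peaks along the gene only; the upper 50% by score left 137 in TRE-Msi2. Limits on score and p-value were set on both lists, so that the sharing left counts fewer peaks of the other list too. Counts within that tolerance still reached 568 WT members from 200 kb and fell to 277 at a p-value of 0.01 or lower, and 122 WT genes were left by the upper 50%. Stricter limits leave fewer peaks by construction, and the cause of the other changes was not tested. Unknown depth prevents a comparison of scores between the lists.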

Other observations

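Distances between neighbouring peaks, whatever their strand, were not spread evenly. A gap of exactly 1000 nt to the next peak occurred for 70 of 481 TRE-Msi2 members (14.6%) and 16 of 380 WT members (4.21%), beside 7.01% of the whole TRE-Msi2 list and 2.88% of the whole WT list. In TRE-Msi2 it occurred for 39 of 202 members opposite to the gene (19.3%), for 15 of 149 along it (10.1%), for 674 of 4280 peaks in no gene span (15.7%) and for 151 of 3793 interior peaks along shorter genes (3.98%).

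Rows of peaks also repeated certain lengths. With peaks of the same strand joined when at most 2 kb apart, and rows kept when all their peaks were of the same kind, 27 of 108 rows of members in TRE-Msi2 and 24 of 84 in WT (28.6%) were exactly 2200 nt long. In no gene span the share was 244 of 1082 (22.6%) in TRE-Msi2 and 121 of 865 (14.0%) in WT. Along shorter genes it was 33 of 477 (6.92%) in TRE-Msi2 and 26 of 252 (10.3%) in WT. Other lengths were more common in places: 1000 nt in WT, for 34 of 84 rows of members and 336 of 865 in no gene span, and 2400 nt in TRE-Msi2 in no gene span, for 285 of 1082. What these places have in common in sequence was not examined here.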
